A study of Mus musculus with 6 samples.

Results

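The ubiquitin-specific proteases (Usp genes) and the cullins were followed in mRNA-seq of D4 embryoid bodies (EBs) from mouse embryonic stem cells (mESCs). Members were taken by symbol alone, as every listed gene named Usp or Cul with a number, except *Usp29*, which is not analysed here. This gave 58 genes of 15266, of which 50 were Usp genes and 8 were cullins. Of these, 55 passed the filter on low reads, and *Usp17lb*, *Usp17le* and *Usp26* did not. The rule also takes in *Usp6nl*, which is named after a Usp gene but acts on Rab GTPases and is no protease. *Usp17lb* and *Usp17le* belong to a family of near-identical copies whose reads are uncertain.

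Both lines were made from W9.5 mESCs with CRISPR-Cas9 and differentiated to D4 EBs in serum without LIF. The EVX1-Δfs line (clone 14) carries frameshift deletions in both alleles of *Evx1*, in the exon that encodes the homeodomain, and leaves the antisense transcript *Evx1as* in place. The Del#3 line carries a larger deletion that takes the promoters of *Evx1as* and the start of *Evx1*. Both lines therefore lack functional EVX1, and the comparison asks what the loss of *Evx1as* adds. Each line has 3 libraries, and the differentiations were set up side by side, each on a different day. Neither titles nor methods state which number belongs to which day, so the same replicate number in both lines was taken to mark one day. Each line is a picked clone, so what belongs to the clone and what belongs to the edit cannot be told apart. W9.5 libraries were not analysed here.

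The reads on the targeted locus matched the Del#3 label, and a frameshift cannot be seen in counts per gene. *Evx1* had 2582 to 4023 reads in the EVX1-Δfs libraries and 28 to 48 in the Del#3 libraries. The reads behind the deposited values summed to 9024579 to 15699124 per library, with the largest total in replicate 1 of each line. Primitive streak and mesoderm markers were detected in every library, with a summed level of 6049 to 9104 normalized counts. Neurectoderm markers stayed at 13.9 to 22.4. Since EBs are mixed tissue, fewer cells of a type and less RNA per cell cannot be told apart in any value below. Replicate 1 stood apart from the other libraries: the first principal component held 50.7% of the variance, with both replicate 1 libraries at one end.

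Ubiquitin is joined to proteins by ligases and taken off by deubiquitinases. Cullins are the scaffolds of the largest ligase family: a cullin binds a RING subunit at one end and an adaptor with a substrate receptor at the other, and it is switched on when the small protein NEDD8 is joined to a conserved lysine. Ubiquitin-specific proteases work in the opposite direction and cut ubiquitin off with a catalytic cysteine. Both families act in every tissue, and members of both set the life span of signalling proteins and cell cycle regulators on which early embryos depend.

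The stretches of coding sequence around these active residues are shown because they hold the lysine and the cysteine just described. The cullin stretches were found by translating the longest GENCODE protein-coding transcript on NCBIM37 and searching for the conserved block around the neddylated lysine, which 5 of the 8 cullins matched. Capitals mark the lysine codon:
Cul1: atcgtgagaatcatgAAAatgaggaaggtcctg
Cul3: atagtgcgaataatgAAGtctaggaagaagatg
Cul4a: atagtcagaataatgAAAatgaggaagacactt
Cul4b: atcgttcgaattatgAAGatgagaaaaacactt
Cul5: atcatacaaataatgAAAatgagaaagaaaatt
They lie at chr6:47474522-47474554 (plus strand) for *Cul1*, chr1:80265809-80265841 (minus) for *Cul3*, chr8:13144343-13144375 (plus) for *Cul4a*, chrX:35890353-35890385 (minus) for *Cul4b* and chr9:53426077-53426109 (minus) for *Cul5*, each within 1 coding exon.

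For the proteases, the block around the catalytic cysteine was found in 39 of the 47 Usp genes with a reference transcript to search. The 6 below are the Usp genes whose replicate 1 levels stood furthest above the others in the results, followed by 3 abundant ones that did not, all chosen after their values were seen. Capitals mark the cysteine codon:
Usp34: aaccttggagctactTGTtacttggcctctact
Usp32: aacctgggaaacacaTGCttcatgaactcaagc
Usp15: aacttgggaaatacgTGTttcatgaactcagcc
Usp37: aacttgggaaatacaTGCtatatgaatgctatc
Usp16: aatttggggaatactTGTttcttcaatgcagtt
Usp25: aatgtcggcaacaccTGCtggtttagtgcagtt
Usp5: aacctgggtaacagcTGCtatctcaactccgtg
Usp4: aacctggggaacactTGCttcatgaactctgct
Usp22: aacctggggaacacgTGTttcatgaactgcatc
They lie at chr11:23326709-23326741 (plus strand) for *Usp34*, chr11:84840677-84840709 (minus) for *Usp32*, chr10:122583856-122583888 (minus) for *Usp15*, chr1:74518221-74518253 (minus) for *Usp37*, chr16:87470069-87470101 (plus) for *Usp16*, chr16:77050767-77050799 (plus) for *Usp25*, chr6:124772582-124772614 (minus) for *Usp5*, chr9:108269171-108269203 (plus) for *Usp4* and chr11:60976449-60976481 (minus) for *Usp22*. Nothing was read from the absence of a match in other genes.

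The families covered a wide range of levels. RPKM, the reads per kilobase of the longest coding transcript scaled to each library's recovered reads, could be set for 54 of the tested genes. The mean over 6 libraries was highest for *Usp10*, which acts on p53, at 126 RPKM, with libraries from 101 to 147. *Usp5*, which takes apart free ubiquitin chains, followed at 114 RPKM, with libraries from 94.1 to 137, so these 2 genes overlapped. Next was *Usp39*, a splicing factor that has lost the catalytic site, at 76.3 RPKM.

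Cullin levels spanned from *Cul4a*, at 52.4 RPKM, down to *Cul9*, at 1.19 RPKM. *Cul1*, the scaffold of the SCF ligases, had 40.6 RPKM, and *Cul7* had 33.6. *Cul4b*, the X-linked paralog of *Cul4a*, had 21.2 RPKM, with libraries from 8.96 to 33.3, all below the lowest *Cul4a* library at 37.4. *Cul2*, *Cul3* and *Cul5*, the scaffolds that work with VHL, BTB proteins and SOCS-box proteins, lay close together at 5.97, 5.45 and 5.21 RPKM, and the ranges of their libraries overlapped. *Usp34* was the most variable gene per length, from 0.517 to 9.24 RPKM, and the lowest mean was that of *Usp53*, at 1.04 RPKM.

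**Figure D1:**
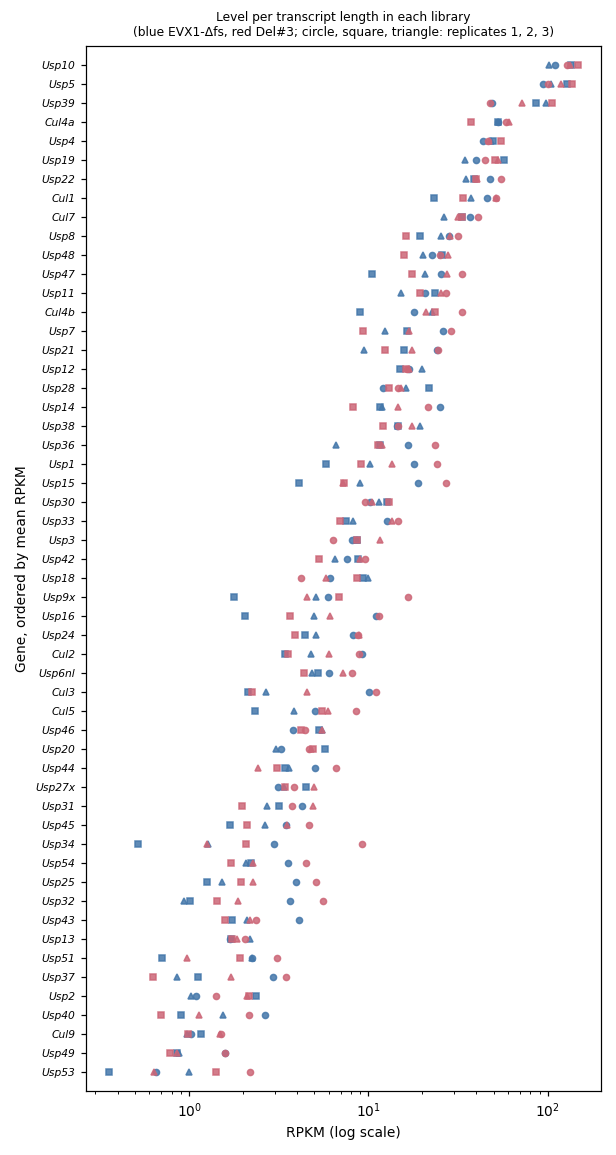
Level of the 54 tested members with a reference transcript in each library, as RPKM on a log axis, ordered by the mean. Blue points are EVX1-Δfs and red points are Del#3, and circles, squares and triangles are replicates 1, 2 and 3. The libraries of *Usp10* lie between 101 and 147 RPKM, and those of *Usp34* between 0.517 and 9.24.

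As a share of all recovered reads, the 58 genes took 4009, 3647 and 3473 RPM in the EVX1-Δfs libraries, in the order of their replicate numbers, and 4806, 3722 and 4154 RPM in those of Del#3. The lines overlapped in this sum. Within each same-numbered pair the Del#3 value was the higher one.

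Between the lines, no member passed an adjusted p of 0.05 in limma (0 of 55, where 0.0155% of all 12891 genes tested did), and 0 did in edgeR or DESeq2. At an unadjusted p under 0.05, 1 member passed in limma, against 1.03% of all genes, 1 in edgeR, against 1.12%, and 2 in DESeq2, against 1.33%. The limma count was 5 without EVX1-Δfs replicate 1 (against 3.41% of all genes), 4 without EVX1-Δfs replicate 3 or without Del#3 replicate 3 (against 1.57% and 1.39%), and 0 without EVX1-Δfs replicate 2 or without Del#3 replicate 1 (against 0.877% and 0.574%). When limma was given the replicate number as a block, 0 members passed the adjusted threshold, against 0.0233% of all genes, while 7 passed at an unadjusted p under 0.05, against 4.62% of all genes. These 7 (*Cul4b*, *Cul5*, *Usp1*, *Usp9x*, *Usp32*, *Usp34* and *Usp47*) were all higher in Del#3, and they make up 12.7% of the members, where 3.64% of all genes were higher in Del#3 at that level. The median log2 fold change over the members, Del#3 against EVX1-Δfs, was 0.12, with 34 positive and 21 negative values between -0.51 and 1.16, and the median of all genes was 0.00. Without Del#3 replicate 2 the members' median was 0.24, and without EVX1-Δfs replicate 2, EVX1-Δfs replicate 3 or Del#3 replicate 1 it was 0.04, 0.08 or 0.05. When log2 values were also corrected for transcript length and GC content, with the block, the members' median became 0.00, and 3 of 54 members had an unadjusted p under 0.05 (5.56%, where 4.09% of all genes passed). *Cul5* and *Usp1* were among the 7 above, and *Cul1* was not. Leaving out single libraries turned the direction of the log2 fold change at least once for 29 of the 55 members and kept it for the other 26.

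The cullin with the clearest separation was *Cul5*, which binds SOCS-box receptors and lies on the minus strand at chr9:53422687-53478119. Its normalized counts were 314, 149 and 262 in EVX1-Δfs, by replicate number here and below, and 502, 375 and 376 in Del#3. Each Del#3 library lay above each EVX1-Δfs library, the only such case among the members (1.82%, where 1.71% of all genes had it). The log2 fold change was 0.84 (SE 0.32, n = 3 per line; limma, adjusted p = 1.00; with the block, adjusted p = 0.693). After the length and GC correction the log2 fold change was 0.40, and without EVX1-Δfs replicate 2 it was 0.53.

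*Cul4b*, which with *Cul4a* carries DCAF receptors, had 913, 465 and 1248 normalized counts in EVX1-Δfs and 1595, 1304 and 1081 in Del#3. Its lines overlapped: Del#3 was higher in the pairs of replicates 1 and 2, by 0.80 and 1.48 on the log2 scale, and lower in the pair of replicate 3, with a difference of -0.21. Pairs here and below follow the replicate numbers, and the data do not show that numbers 2 and 3 pair the libraries. With numbers 2 and 3 crossed, *Cul4b* was higher in Del#3 in every pair. *Cul4a* had 2043, 2072 and 2209 normalized counts against 2117, 1575 and 2371, which gave a log2 fold change of -0.08 (SE 0.23), the only negative one among the cullins. The other log2 fold changes were 0.36 for *Cul1* (SE 0.29), 0.29 for *Cul3* (SE 0.61), 0.27 for *Cul9* (SE 0.30), 0.10 for *Cul7* (SE 0.22) and 0.08 for *Cul2* (SE 0.40), and none of these passed the test. With the length and GC correction those of *Cul2*, *Cul3* and *Cul7* turned to -0.24, -0.23 and -0.09. Single libraries also moved them: without EVX1-Δfs replicate 2 that of *Cul1* was 0.07, and that of *Cul3* ran from -0.25 without Del#3 replicate 1 to 0.95 without EVX1-Δfs replicate 1. The value of *Cul2* ran from -0.25 without EVX1-Δfs replicate 2 to 0.44 without EVX1-Δfs replicate 1. The narrowest interval among the cullins was that of *Cul7*, a cullin of the growth-linked 3M complex, whose 95% interval ran from -0.38 to 0.58.

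The proteases listed under SMAD and Wnt signalling were *Usp34*, *Usp9x*, *Usp15* and *Usp4*, and none of them passed the test. *Usp34*, which acts on axin, had 351, 62.1 and 164 normalized counts in EVX1-Δfs and 1023, 265 and 150 in Del#3. *Usp9x*, which acts on SMAD4 and lies on chromosome X, had 737, 224 and 681 against 1929, 925 and 563. Paired by number, both genes were higher in Del#3 for replicates 1 and 2 and lower for replicate 3, and their lines overlapped. With numbers 2 and 3 crossed, both were higher in Del#3 in every pair.

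For *Usp34* the differences within pairs were 1.54, 2.07 and -0.13, and the log2 fold change was 1.16 (SE 0.72; limma, adjusted p = 1.00; with the block, adjusted p = 0.864). For *Usp9x* they were 1.39, 2.04 and -0.27, and the log2 fold change was 1.05 (SE 0.51; limma, adjusted p = 1.00; with the block, adjusted p = 0.944). Without Del#3 replicate 1 these log2 fold changes were 0.37 and 0.58, and without EVX1-Δfs replicate 2 they were 0.52 and 0.50. Without Del#3 replicate 3 they were 1.76 and 1.47, and corrected for length and GC content they were 0.54 and 0.30. The other members of this group, *Usp15* and *Usp4*, had log2 fold changes of 0.31 (SE 0.58) and 0.03 (SE 0.22), and single libraries turned both: that of *Usp15* ran from -0.27 without Del#3 replicate 1 to 0.83 without EVX1-Δfs replicate 1, and was -0.26 without EVX1-Δfs replicate 2, and that of *Usp4* was 0.13 without Del#3 replicate 1 but -0.09 once Del#3 replicate 2 was left out.

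Among the proteases of p53 and the DNA damage response, 4 of 6 had positive log2 fold changes and none passed the test. *Usp1*, which takes ubiquitin off FANCD2 and PCNA, had 667, 218 and 414 normalized counts in EVX1-Δfs and 837, 368 and 508 in Del#3. *Usp47* had 1461, 611 and 1289 against 1807, 1089 and 1598. Both genes were higher in Del#3 within all 3 pairs by number, and their lines overlapped. With numbers 2 and 3 crossed, both were lower in Del#3 replicate 2 than in EVX1-Δfs replicate 3. Their log2 fold changes of 0.46 and 0.48 were 0.04 and 0.09 without EVX1-Δfs replicate 2, and 0.84 and 0.72 without EVX1-Δfs replicate 1. *Usp7*, the protease of MDM2, had 1484, 953 and 769 against 1538, 582 and 970, with a log2 fold change of -0.11 (SE 0.37). *Usp10* had 4223, 5298 and 4253 against 4670, 6188 and 5197, higher in Del#3 by 0.15, 0.22 and 0.29 within the pairs. *Usp28* and *Usp11* had log2 fold changes of -0.22 and 0.25. When single libraries were left out, these ran from -0.46 to -0.01 and from 0.11 to 0.38.

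None of the 8 proteases tied to histones and chromatin passed the test (0 in limma, also at an unadjusted p under 0.05). Their log2 fold changes ran from -0.15 for *Usp44* to 0.36 for *Usp16*, with 5 positive and 3 negative. Both ends turned with single libraries: *Usp16* was at -0.27 without EVX1-Δfs replicate 2, -0.01 without Del#3 replicate 1 and 0.92 without EVX1-Δfs replicate 1, and *Usp44* was at -0.51 without Del#3 replicate 1 but at 0.15 when Del#3 replicate 3 was left out. *Usp22*, the subunit of SAGA that acts on H2B, had 2190, 1828 and 1749 normalized counts in EVX1-Δfs and 2372, 2000 and 1878 in Del#3, with differences of 0.11, 0.13 and 0.10 within the pairs. Its log2 fold change was 0.12, with a 95% interval from -0.37 to 0.60. *Usp51*, an X-linked relative of *Usp22*, had 51.5, 16.4 and 55.5 against 66.1, 47.6 and 22.4, and its direction turned between pairs.

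Of the proteases of membranes and organelles, *Usp32* was higher in Del#3 within all pairs. It had 267, 75.0 and 74.4 normalized counts in EVX1-Δfs and 384, 114 and 138 in Del#3, a log2 fold change of 0.67 (SE 0.57; limma, adjusted p = 1.00; with the block, adjusted p = 0.852). The lines of *Usp32* overlapped because its replicate 1 in EVX1-Δfs exceeded Del#3 replicates 2 and 3. Its log2 fold change was 0.13 without Del#3 replicate 1, 1.27 without EVX1-Δfs replicate 1, 0.36 without EVX1-Δfs replicate 2 or 3 and 0.35 after the length and GC correction. *Usp8*, which sorts receptors at endosomes, had a log2 fold change of -0.00 (SE 0.27), and *Usp30*, a mitochondrial protease, one of -0.10 (SE 0.26). *Usp19*, *Usp20* and *Usp33* had 0.17, 0.28 and 0.24.

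*Usp14* and *Usp5*, which recycle ubiquitin at the proteasome and from free chains, had log2 fold changes of -0.18 (SE 0.38) and 0.09 (SE 0.25), and *Usp13* had -0.02 (SE 0.28). The most negative value among the members was that of *Usp18*, which takes the interferon-induced modifier ISG15 off proteins. It had 112, 175 and 200 normalized counts in EVX1-Δfs and 72.5, 172 and 107 in Del#3, a log2 fold change of -0.51 (SE 0.38; limma, adjusted p = 1.00), which was -0.21 without Del#3 replicate 1 and -0.83 without Del#3 replicate 2. *Usp53* had 27.1, 15.2 and 44.9 against 85.3, 63.9 and 26.7. Paired by number, it was higher in Del#3 for replicates 1 and 2 and lower for replicate 3. With numbers 2 and 3 crossed, it was higher in Del#3 in every pair. Its log2 fold change was 0.96 (SE 0.53). It was 0.58 without EVX1-Δfs replicate 2 and 1.44 without Del#3 replicate 3. All 5 tested members on chromosome X had positive log2 fold changes, from 0.12 to 1.05, where 266 of 457 X-linked genes tested did and their median was 0.08. Single libraries turned *Usp27x* (-0.03 without Del#3 replicate 3) and *Usp51* (-0.36 without EVX1-Δfs replicate 2), but not *Cul4b*, *Usp11* and *Usp9x*.

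Precision was limited by the spread between replicates. The 95% interval of the fold change stayed within 2-fold either way for 33 of the 55 members (60.0%, where 61.1% of all genes had such an interval).

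**Figure D2:**
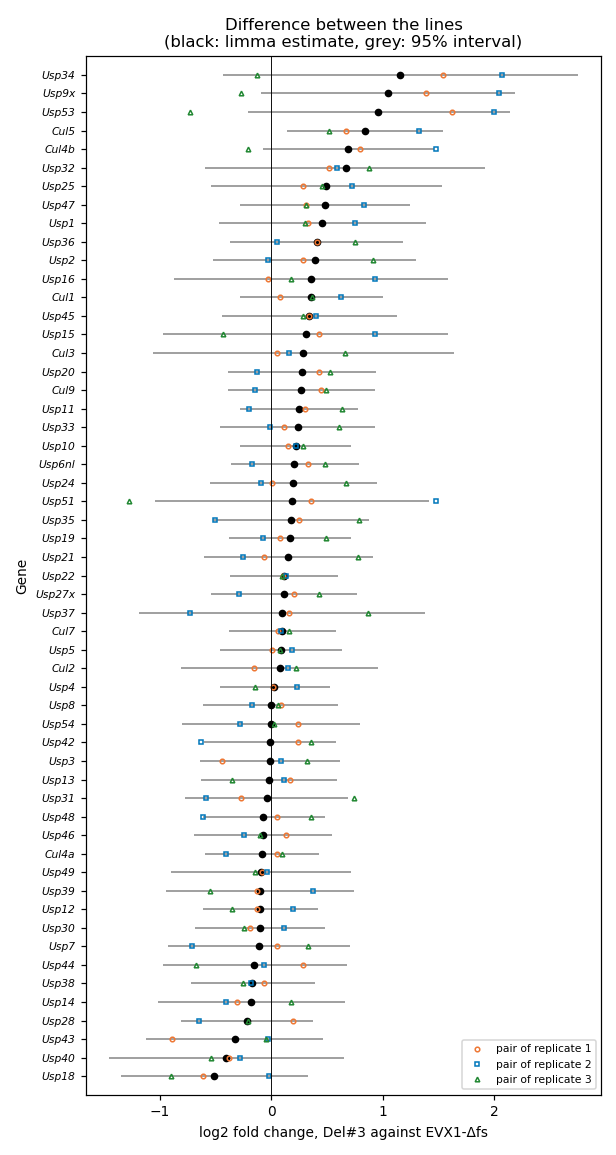
log2 fold change of each tested member, Del#3 against EVX1-Δfs, with the limma estimate in black, its 95% interval in grey, and the difference within each pair of same-numbered replicates as open symbols. The interval of *Cul5* runs from 0.14 to 1.54, and for *Usp34*, *Usp9x* and *Usp53* the pair of replicate 3 lies below 0 while the other pairs lie above it. The pairs of replicates 2 and 3 rest on the numbering alone.

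More members passed a test of the replicate number than one of the line. In a limma F test of the replicate number, with the line in the model, 6 of 55 members passed an adjusted p of 0.05 (10.9%, where 4.24% of all genes did). All of these (*Cul3*, *Usp1*, *Usp15*, *Usp16*, *Usp25* and *Usp32*) were higher in replicate 1 in both lines, in which direction 3.56% of all genes passed. *Usp25* is named here because it passed, a choice made after its values were seen. The difference of replicate 1 from the mean of replicates 2 and 3 had a median of 0.34 on the log2 scale over the members and 0.04 over all genes. It was positive in both lines for 34 members, negative in both for 16, and differed in direction for 5. With the lines averaged it was positive for 38 of 55 members and for 6760 of all 12891 genes. Both replicate 1 libraries lay above all others for 19 members (34.5%, where 22.2% of all genes did), and below all others for 8 (14.5%, where 22.7% did).

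*Cul3*, the scaffold for BTB-domain receptors, had 490 normalized counts in replicate 1 of EVX1-Δfs and 107 and 142 in replicates 2 and 3. In Del#3 it had 507, 120 and 224. Replicate 1 was 3.95 times the mean of the others in EVX1-Δfs and 2.95 times in Del#3, and the groups of libraries did not overlap (limma F test, adjusted p = 0.0238). All 8 cullins were higher in replicate 1 when the lines were averaged, from 0.01 for *Cul9* to 1.80 for *Cul3* on the log2 scale, while after a correction for length and GC content *Cul4a*, *Cul4b*, *Cul5* and *Cul9* were lower, from -0.06 to -0.44. *Cul2* followed *Cul3* with 0.94 and an adjusted p of 0.0506 (limma F test).

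*Usp15*, which acts on SMAD proteins and their receptors, had 634, 139 and 326 normalized counts in EVX1-Δfs and 853, 266 and 242 in Del#3. *Usp16*, which takes ubiquitin off histone H2A, had 364, 69.1 and 181 against 356, 132 and 205. In both genes each replicate 1 library stood above the other 4 libraries, and the adjusted p-values were 0.035 and 0.0319 (limma F test).

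*Usp32* stood 3.58 times higher in replicate 1 than in the others in EVX1-Δfs and 3.05 times in Del#3 (limma F test, adjusted p = 0.0241). *Usp1* did so by 2.11 and 1.91 times (adjusted p = 0.035, limma F test), and *Usp25* by 2.68 and 2.18 times (adjusted p = 0.0496, limma F test). The greatest difference was that of *Usp34*, at 2.07 on the log2 scale, but its adjusted p was 0.0504, and Del#3 replicate 1, at 1023, stood far above its other libraries. *Usp37*, a protease of the cell cycle, had a difference of 1.53 (limma F test, adjusted p = 0.0642). These calls depended on the test. In DESeq2's likelihood ratio test the adjusted p was 1.95e-05 for *Usp34*, 0.0037 for *Usp37*, 0.0106 for *Cul2* and 0.00706 for *Usp39*, which was lower in replicate 1. In limma *Usp34* passed with a pseudocount of 5 (0.0445) and with a minimum of 10 reads in every library (0.0443), as did *Cul2* (0.0486 and 0.0473). The call of *Usp25* was lost in limma with a pseudocount of 0.1, with scaling to total reads and with TMM factors.

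In the other direction, *Usp39* had 1140 normalized counts in replicate 1 of EVX1-Δfs and 2049 and 2476 in replicates 2 and 3, and 1040, 2665 and 1687 in Del#3. Both replicate 1 libraries were the lowest, at 0.504 and 0.478 times the mean of the others, with differences of -0.98 and -1.03 on the log2 scale (limma F test, adjusted p = 0.067). *Usp5* had 3134, 4375 and 3793 against 3161, 4978 and 4004, also lowest in both replicate 1 libraries, with a difference of -0.44. *Usp18* and *Usp3* had differences of -0.82 and -0.49, and neither passed in limma. The members that moved least between replicate numbers were *Usp11*, *Cul9*, *Usp42*, *Usp13* and *Usp48*, with a range of the replicate means from 0.15 to 0.22 on the log2 scale.

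**Figure D3:**
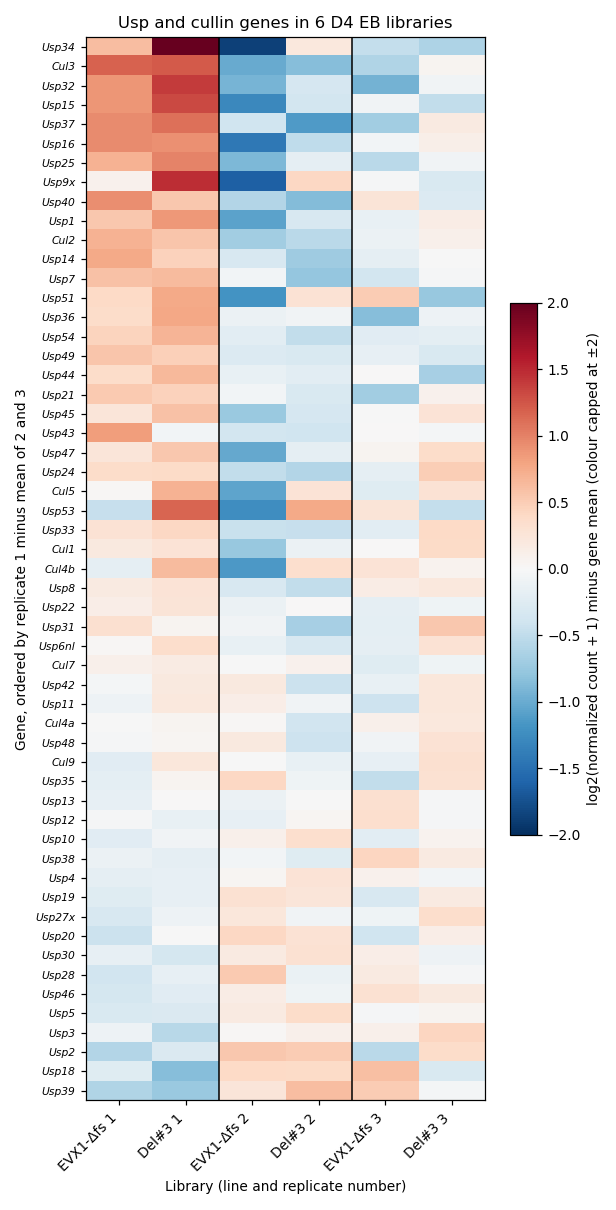
log2(normalized count + 1) of the 55 tested members in each library, relative to the gene's mean over the 6 libraries, ordered by the difference of replicate 1 from the mean of replicates 2 and 3. Red is above and blue below the gene's mean, and the difference runs from 2.07 for *Usp34* at the top to negative values, the lowest being that of *Usp39*, at the bottom.

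**Figure D4:**
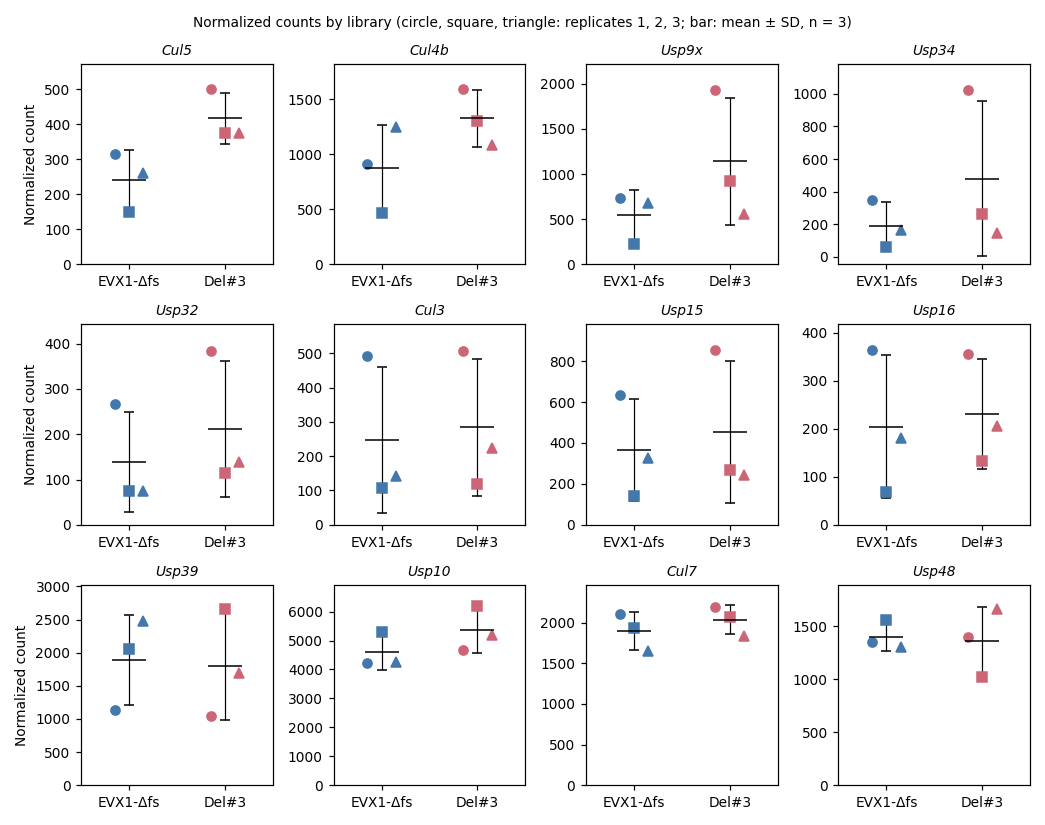
Normalized counts of 12 members in each library, chosen after their values were seen. Circles, squares and triangles are replicates 1, 2 and 3, and bars are the mean ± SD (n = 3). Each Del#3 library of *Cul5* lies above each EVX1-Δfs library, while *Cul3*, *Usp15*, *Usp16* and *Usp32* are highest in both replicate 1 libraries and *Usp39* is lowest in them.

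The replicate 1 difference was set beside the composition and length of the transcripts. Over the 54 members with a reference transcript, its Spearman correlation was -0.58 with the share of G and C and 0.21 with transcript length. Over all 11994 such genes these were -0.37 and 0.39. These are descriptions across genes, which share the same 6 libraries and are not independent. The members' transcripts had a median of 4573 bases and 47.3% G and C, and those of all genes 3064 bases and 50.9%. At a limit of 45%, set after the values were seen, 18 members lay below it, of which 17 were higher in replicate 1, with a median of 0.99. The 36 members above it had a median of 0.06. Within these groups the correlation with G and C was 0.03 and -0.30. For all genes the medians were 0.53 below the limit and -0.05 above it. Of all genes, 1901 of 2449 below the limit and 4423 of 9545 above it were higher in replicate 1.

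The limit falls between *Usp47*, at 44.6%, and *Usp53*, at 45.2%, and the 6 members that passed the F test and the 7 with an unadjusted p under 0.05 between the lines with the block lay below it. Among all genes 60.6% of those that passed the F test and 66.7% of those at that unadjusted p with the block lay below it, where 20.4% of all genes did. Because the limit was set after the values were seen, these are descriptions with no test. *Cul3* had the lowest share, 38.5%, in a transcript of 4709 bases, and *Cul9* the highest, 59.8%, in one of 7818 bases. *Usp46*, at 42.6%, was the exception among those below the limit, with a difference of -0.43. When log2 values were corrected for length and GC content, a step added after the data were seen, the members' median difference was 0.01 and 4 members passed (7.41%, where 3.71% of all genes did). *Usp15* and *Usp16* still passed, with 1.24 and 1.07, while *Usp39* and *Usp46* passed in the other direction with -0.89 and -1.04 (limma F test, adjusted p from 0.0418 to 0.0475). *Cul3* kept a difference of 1.01 but had an adjusted p of 0.134 (limma F test).

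**Figure D5:**
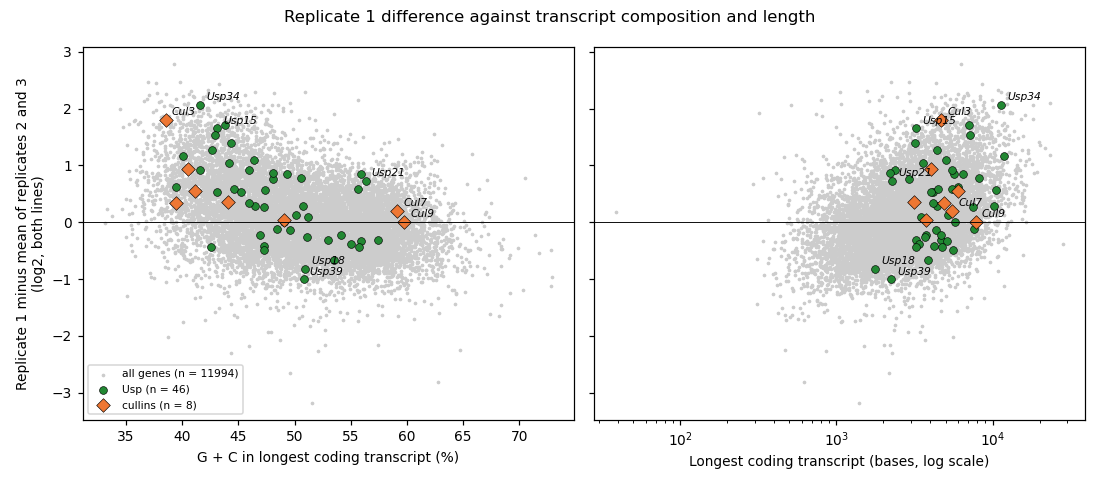
Difference of replicate 1 from the mean of replicates 2 and 3 (log2, both lines) against the G and C share and against the length of the longest coding transcript, on a log axis. Grey points are all 11994 tested genes with a reference transcript, green points 46 Usp genes and orange diamonds 8 cullins. Members under 45% G and C lie mostly above 0, with a median of 0.99, and the others around 0.06.

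The count of members that passed the F test moved with the libraries used. Without EVX1-Δfs replicates 1, 2 or 3 it was 3, 14 or 23, where 1.5%, 17.1% and 19.0% of all genes passed. Without Del#3 replicates 1, 2 or 3 it was 4, 15 or 24, where 1.64%, 11.6% and 25.2% of all genes passed. In these fits one replicate number keeps a single library, and the share of all genes moved with that of the members. DESeq2's likelihood ratio test called 15 (27.3%, where 11.5% of genes passed). Of the cell type markers, 1 of 5 tested for blood and endothelium passed the F test, the embryonic globin *Hba-x*, and 0 of those for primitive streak and mesoderm (6 tested), endoderm (5), pluripotent cells (5) and feeder fibroblasts (3) did. The summed level of the blood markers was 1963 and 1965 normalized counts in the replicate 1 libraries and 1220 to 1598 in the others. Primitive streak and mesoderm markers summed to 7624 and 6049 in replicate 1 and 8221 to 9104 in the others, and endoderm markers to 3642 and 2918 against 3743 to 4450. These sums weigh abundant genes most. Gene by gene, 4 streak and mesoderm markers were higher in replicate 1 and 2 lower (log2 differences from -0.66 to 0.23, median 0.04). Of the endoderm markers 2 were higher and 3 lower (median -0.14), and of the blood markers 4 were higher and 1 lower. Their part in the members' difference was not tested, nor was that of depth, which was greatest in replicate 1 of both lines.

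The partners of both families, 95 listed genes that were all tested, showed no call between the lines either (0 by limma, edgeR and DESeq2, 1 at an unadjusted p under 0.05 in limma, which is 1.05% beside 1.03% of all genes), with a median log2 fold change of -0.02. Adaptors and RING subunits of the cullins ran from -0.31 to 0.12. Substrate receptors had a median of -0.08, with 7 positive and 16 negative of 23, and the NEDD8 pathway with the COP9 signalosome one of -0.11, also 7 positive and 16 negative of 23. The gene past the unadjusted limit was *Mysm1*, a histone H2A deubiquitinase outside the USP family, with 115, 60.9 and 112 normalized counts in EVX1-Δfs and 285, 188 and 141 in Del#3. With the block in limma, *Otud4* and *Vcpip1* were past that limit too (3 of 95, 3.16%, where 4.62% of all genes were), and with the block and the length and GC correction 8 of 95 were (8.42%, beside 4.09% of all genes). With neither block nor correction, the count was 4 without EVX1-Δfs replicate 3 (4.21%, beside 1.57% of all genes) and 3 without EVX1-Δfs replicate 1 (3.16%, beside 3.41%). It was 2 without Del#3 replicate 2 (2.11%, beside 1.91%) and 1 without Del#3 replicate 3 (1.05%, beside 1.39%). Without EVX1-Δfs replicate 2 or without Del#3 replicate 1 it was 0 (beside 0.877% and 0.574%). In the F test of the replicate number 5 of the 95 partners passed (5.26%, near the 4.24% of all genes), all higher in replicate 1: *Cops3*, *Uchl3*, *Otud4*, *Vcpip1* and *Atxn3*. Apart from *Cops3*, a subunit of the COP9 signalosome that takes NEDD8 off cullins, these are deubiquitinases of other families.

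Some members share exonic bases with neighbouring genes, and what this did to their counts was not tested. Exons of *Usp49* share 5580 bases with *Med20* on the same strand, and those of *Usp10* share 99 bases with *Gm20388*. With a gene on the opposite strand 13 members share exonic bases, among them *Usp34* with *Ahsa2* (1321 bases) and *Usp16* with *Cct8* (193 bases), where reads can be told apart only by strand, which HTSeq uses at its standard settings.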

How the data were processed

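mRNA-seq of D4 EBs gave 1 table of 15266 genes by 6 libraries, 3 per line, grouped by sample title. Sequencing was on the Ion Proton, and per the labels and the study's methods the reads were aligned to mm9 by TopHat2 and then TMAP, and assigned to genes by HTSeq at its default options before DESeq2. The signal values that the authors deposited are these counts divided by a size factor: within each library 100% were whole multiples of 1 step (tolerance 0.01), and dividing by it recovered the reads.

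The main test was limma (version 3.58.1, under R 4.3.3), with a mean-variance trend and no block, on log2 of the normalized count plus 1, over the 12891 genes that passed filterByExpr of edgeR (version 4.0.16) with a minimum count of 10. p-values were adjusted over all genes by the Benjamini-Hochberg method at 0.05, and fold changes are on the log2(value + 1) scale, which understates those of low genes. Intervals are at the 95% level. Since each side-by-side differentiation had its own day, replicate numbers were taken to mark days, the block was fitted as an alternative, and the numbers were tested by an F test. Deviations of same-numbered libraries from their line means correlated across genes with r = 0.738, 0.317 and -0.053 for replicates 1 to 3. EVX1-Δfs replicate 3 with Del#3 replicate 2 had 0.418, and EVX1-Δfs replicate 2 with Del#3 replicate 3 had 0.25, so the data do not show that numbers 2 and 3 pair the libraries, and differences within those pairs rest on the numbering alone.

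Other alternatives were pseudocounts of 0.1 and 5, no filter or 10 reads in every library, scaling to total reads, TMM factors, edgeR's quasi-likelihood test and DESeq2 (version 1.42.0) on the recovered reads, a loess correction for transcript length and GC content (span 0.3), and leaving out single libraries. Tests were tried on simulated data. For the replicate numbers, the length and GC correction and the left-out libraries were added after seeing the data.

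Named genes are all cullins, members with an unadjusted p under 0.05 with or without the block, the 10 Usp genes with the highest mean, the 5 with the largest and the 5 with the smallest range between replicate numbers, members with a listed role, and partner genes past the threshold or among the 3 smallest p of their list. The members and lists were chosen with earlier results of these data known. Positions, lengths and GC content come from the longest protein-coding transcript of GENCODE on NCBIM37, the assembly known as mm9. No such transcript was used for *Usp35*, *Usp17lb* and *Usp17le*. RPKM and RPM were computed from the recovered reads. Reads are not independent molecules, so counting error understates the spread that replicates show.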

Additional observations from a re-analysis of the deposited data

Results flagged for a closer look

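*Usp13*, a protease related to *Usp5*, differed in direction between the lines in how replicate 1 compared with the other replicates. In EVX1-Δfs its log2 difference of replicate 1 from the mean of replicates 2 and 3 was -0.26, from 133, 137 and 187 normalized counts in replicates 1 to 3, and in Del#3 it was 0.03, from 151, 149 and 146. Each replicate 1 library lay outside the other 2 of its line. The sign of this difference also differed between the lines for *Cul4a*, *Cul9*, *Usp42* and *Usp48*, but there replicate 1 lay between the other libraries of at least 1 line. The difference between the lines was not tested.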

How the results depend on the processing

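No member and no partner gene passed the adjusted threshold between the lines under any of the 19 alternatives. The count over all genes was 2 in limma and in edgeR and 3 in DESeq2, and with the replicate block it was 3 in limma, 3 in edgeR and 18 in DESeq2. Without replicate 1 in both lines it was 3. The cause was not tested. The members' median log2 fold change ran from 0.04 to 0.24 when single libraries were left out, with the lowest value without EVX1-Δfs replicate 2 and the highest without Del#3 replicate 2, and was 0.12 with the block. Of the 46 named members tested, 20 kept the direction of their fold change under every alternative. The block moved the members at an unadjusted p under 0.05 from 1 to 7 in limma and in edgeR and from 2 to 6 in DESeq2, while the share of all genes rose from 1.03% to 4.62%, 1.12% to 4.50% and 1.33% to 3.21%. It changed no adjusted call of a member.

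The number of members differing between replicate numbers was 6 in limma and 15 in DESeq2's likelihood ratio test, and 3 to 24 when single libraries were left out, where 1.5% to 25.2% of all genes passed. The other alternatives gave 4 to 8, with 2.46% to 5.52% of all genes. Scaling to total reads moved the replicate 1 difference of all genes to a median of 0.15 and that of the members to 0.46. With 3 libraries per line, differences of the size seen for *Usp34* and *Usp9x* could not be separated from the spread between replicates.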
